A study of Mus musculus with 59 samples.

Results

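Hippocampus libraries from mice labelled heterozygous for both Mrpl40 and Slc25a1 were compared with those from mice labelled wild type at both genes. The libraries were chosen by their labelled tissue and genotype alone: 7 double heterozygous (Mrpl40 -/+,Slc25a1 -/+, called double het here) and 8 wild type (Mrpl40 +/+,Slc25a1 +/+), 15 of the 59 libraries of the series. Each library was made from poly(A) RNA of 1 male mouse, with its own animal number, and sequenced as stranded read pairs. Hippocampus of single heterozygotes (Mrpl40 +/+,Slc25a1 -/+, called Slc25a1 het, and Mrpl40 -/+,Slc25a1 +/+, called Mrpl40 het, 7 libraries each) entered the same model, and cortex of the same animals was used as a second tissue. The animals' age and strain, the kind of mutation at either gene, and whether it acts in all cells were not stated in the labels. No treatment is named in the labels.

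Slc25a1 encodes the citrate carrier of the inner mitochondrial membrane, which exports citrate to the cytosol for the synthesis of fatty acids and cholesterol. Mrpl40 belongs to the large subunit of the ribosome inside mitochondria, which translates the messenger RNAs of the mitochondrial genome into core subunits of the respiratory chain. Both genes lie in the mouse region that matches the segment lost in human 22q11.2 deletion syndrome, and the hippocampus is a brain region often studied in models of that deletion. Nuclear genes encode all proteins of the mitochondrial ribosome and most subunits of the respiratory chain, so that the chain is built from the products of both genomes.

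Total counts ranged from 21467790 to 28700192 per wild-type library and from 22181973 to 29222558 per double het library, and levels are given in CPM, the usual parts of a library's total count, after scaling by the trimmed mean of M-values. The tissue label was checked on markers. Prox1, a transcription factor of dentate granule cells, had a median of 246 CPM against 12.3 CPM in cortex, and Cux2, a marker of upper cortical layers, 26.0 against 238 CPM. Lists of markers of neighbouring regions (choroid plexus, cerebellum, subiculum and neocortex) set wild-type library 8 and double het libraries 6 and 7 apart, each more than 0.7 above the hippocampus median in mean log2 CPM of at least 1 list. List medians without these libraries, called the libraries set apart, are given where they turned direction or moved by more than 1.5 times.

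The targeted genes were examined first, since they check the labels. Slc25a1 had 2 separate levels, and 4 libraries lay at the level of the other label. In 6 wild-type libraries it was 23.2 to 26.6 CPM, but the libraries labelled wild type 6 and 7 had 11.3 and 12.3 CPM. In 5 double het libraries it was 11.3 to 13.0 CPM, but the libraries labelled double het 5 and 6 had 27.7 and 21.4 CPM. The groups therefore overlapped over their whole range, with medians of 25.0 CPM in wild type and 12.6 CPM in double het. The mean was 21.8 ± 6.25 CPM (SD, n = 8) in wild type and 15.8 ± 6.29 CPM (SD, n = 7) in double het, which gave -0.46 ± 0.22 (SE) on the log2 scale (edgeR adjusted p 0.933).

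Cortex of the same animals showed the same 2 levels. There the wild-type animals of hippocampus libraries 6 and 7 had 12.6 and 12.0 CPM of Slc25a1, and the double het animals of libraries 5 and 6 had 21.6 and 20.8 CPM. The mismatch thus lay with the animals and was seen in both tissues. Labels were kept as given, groups are named by their labels, and results are also given without the 6 animals (2 wild type, 2 Slc25a1 het and 2 double het) whose Slc25a1 level goes against the label. That smaller comparison has 6 wild-type and 5 double het libraries and is no test of Slc25a1, by which the animals were picked.

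**Figure D1:**
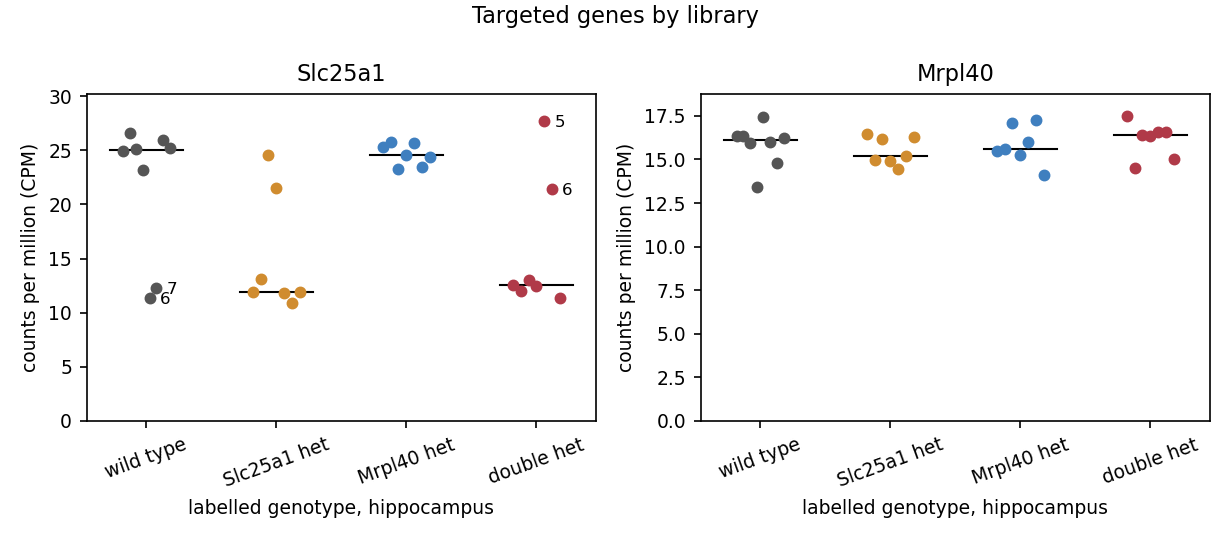
Levels in CPM of Slc25a1 (left) and Mrpl40 (right) in each hippocampus library by labelled genotype, with 1 point per library and a bar at the group median. Wild-type libraries 6 and 7 and double het libraries 5 and 6, marked by number, lie at the Slc25a1 level of the other label, while Mrpl40 spans 13.4 to 17.5 CPM in wild type and 14.5 to 17.5 CPM in double het.

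Mrpl40 had nearly the same count in both groups. It ranged from 13.4 to 17.5 CPM with a median of 16.1 in wild type, and from 14.5 to 17.5 CPM with a median of 16.4 in double het. Its log2 fold change was 0.03 ± 0.054 (SE; edgeR adjusted p 0.999), with a 95% interval of -0.08 to 0.14. A halving of the count would be a log2 fold change of -1, which lies outside this interval. The count therefore does not check the Mrpl40 label, because an allele that leaves the count unchanged is not told from a wild-type allele.

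Over all 20162 genes tested, 2 passed an adjusted p of 0.05 by edgeR, or 0.00992% of genes, and both were higher in double het. Both are nuclear copies of mitochondrial genes. No gene was lower at that threshold. At an unadjusted p under 0.05 there were 449 genes higher (2.23%) and 615 genes lower (3.05%), 5.28% in all, and the median log2 fold change of all genes was -0.0029. DESeq2, run on 41378 genes without the filter on low counts, called 4 genes, all copies of mitochondrial genes. They were the same 2, Gm28439 (DESeq2 adjusted p 0.00335) and Gm28437 (DESeq2 adjusted p 0.0113).

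The mitochondrial genome itself holds 37 gene rows in the count table, and all were at 0 in every library. Stretches of mitochondrial DNA that were inserted into nuclear chromosomes during evolution are annotated as pseudogenes, and these did hold counts. A search of the GENCODE vM21 transcripts found 11 annotated genes with at least 95% identity to a mitochondrial gene over at least 200 bases. Of these, 11 of 11 had counts high enough to be tested. They match 9 mitochondrial genes. Of the 11, 7 lie side by side on the minus strand of chromosome 1 (chr1:24611535-24616197, GRCm38), 3 on chromosome 2 (chr2:22587291-22590533) and 1 on chromosome 13 (chr13:85126550-85127514). A further 17 annotated copies that were shorter or below 95% identity were found, and 0 of them had counts high enough to be tested.

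The sequences show how closely the copies match. The first 120 bases of Gm10222 (chr1:24612581-24612700, minus strand, GRCm38, GENCODE vM21) are also the first 120 bases of mt-Nd4l, which encodes a subunit of complex I, and are shown because this copy had the smallest p.
Gm10222 and mt-Nd4l: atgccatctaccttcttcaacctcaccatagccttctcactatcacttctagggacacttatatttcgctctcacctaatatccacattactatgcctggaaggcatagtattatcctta
Gm13340 copies mt-Co1, which encodes the catalytic subunit of cytochrome c oxidase, with 37 mismatches over 1545 bases. The 120-base stretch with the most differences (chr2:22588355-22588474, minus strand) and its mitochondrial counterpart (chrM:6501-6620, plus strand) hold 6 differences, given in capitals.
Gm13340: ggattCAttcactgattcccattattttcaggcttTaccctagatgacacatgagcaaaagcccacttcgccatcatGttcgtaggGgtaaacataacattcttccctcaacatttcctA
mt-Co1: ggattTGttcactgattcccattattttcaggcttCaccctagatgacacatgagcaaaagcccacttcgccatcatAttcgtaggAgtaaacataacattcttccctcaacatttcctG

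Reads of this study were 150 bases long. All 145 windows of 150 bases in Gm10222 were identical to mt-Nd4l, and 5 of the 11 copies (Gm10222, Gm10925, Gm28437, Gm28439 and Gm28661) were identical to the mitochondrial gene over every aligned base. For these 5 copies a read's sequence does not show which of the pair it came from. Nearly the same held for Gm28438, with 193 of 196 windows identical, and Gm29216, with 330 of 334. In Gm13341 24 of 535 windows were identical, and in Gm13339 and Gm4076 0 were. In Gm13340, 0 of 1396 windows of 150 bases were identical to mt-Co1, so that a read matching the copy without mismatch differs from the mitochondrial gene. How the authors' alignment and counting placed reads that match several sites was not stated, and from which of the pair the counted RNA came was not tested.

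Gm10222 (ENSMUSG00000067736) ranged from 197 to 242 CPM with a median of 215 in wild type, and from 243 to 320 CPM with a median of 278 in double het. The groups did not overlap: 7 of 7 double het libraries lay above every wild-type library, although the closest pair was nearly equal. Its log2 fold change was 0.38 ± 0.064 (SE), a 1.30-fold rise (95% interval 0.25 to 0.51 on the log2 scale; edgeR adjusted p 0.0256). Gm13340 ranged from 195 to 253 CPM with a median of 214 in wild type, and from 244 to 337 CPM with a median of 297 in double het. Here 5 of 7 double het libraries lay above every wild-type library, and the other 2 lay within the wild-type range. Gm13340 rose by a log2 fold change of 0.40 ± 0.072 (SE), or 1.32-fold (95% interval 0.25 to 0.55; edgeR adjusted p 0.0412).

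The other copies lay above wild type as well without passing. All 11 copies had a log2 fold change above 0, from 0.19 to 0.46 with a median of 0.33, where 48.6% of all genes tested lay above 0. The 11 were put together after the calls were known. Copies of the same mitochondrial gene can share reads, and 7 of the 11 lie side by side on chromosome 1. Their number is therefore a description and no support. Among the copies of complex I genes, Gm28439 (mt-Nd4) was at 0.33 ± 0.064 (edgeR adjusted p 0.0795), Gm28438 (mt-Nd3) 0.32 ± 0.071, Gm13339 (mt-Nd2) 0.43 ± 0.12 and Gm4076 (mt-Nd5) 0.38 ± 0.10.

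Copies of cytochrome c oxidase and ATP synthase genes lay above wild type too. Gm28437, a copy of mt-Co3, ranged from 1295 to 1518 CPM with a median of 1387 in wild type, and from 1526 to 2080 CPM with a median of 1714 in double het, with no overlap between groups (log2 fold change 0.33 ± 0.068; edgeR adjusted p 0.147). Gm10925, a copy of mt-Atp6, was the most abundant at a median of 2564 CPM in wild type and 3140 CPM in double het (0.28 ± 0.072). Both copies of mt-Co2 lay above, Gm28661 by 0.20 ± 0.072 and the low Gm13341, with a median of 3.15 CPM in wild type and 4.24 CPM in double het, by 0.46 ± 0.12. Gm29216, the second copy of mt-Co1, had the smallest value of the 11, 0.19 ± 0.084.

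**Figure D2:**
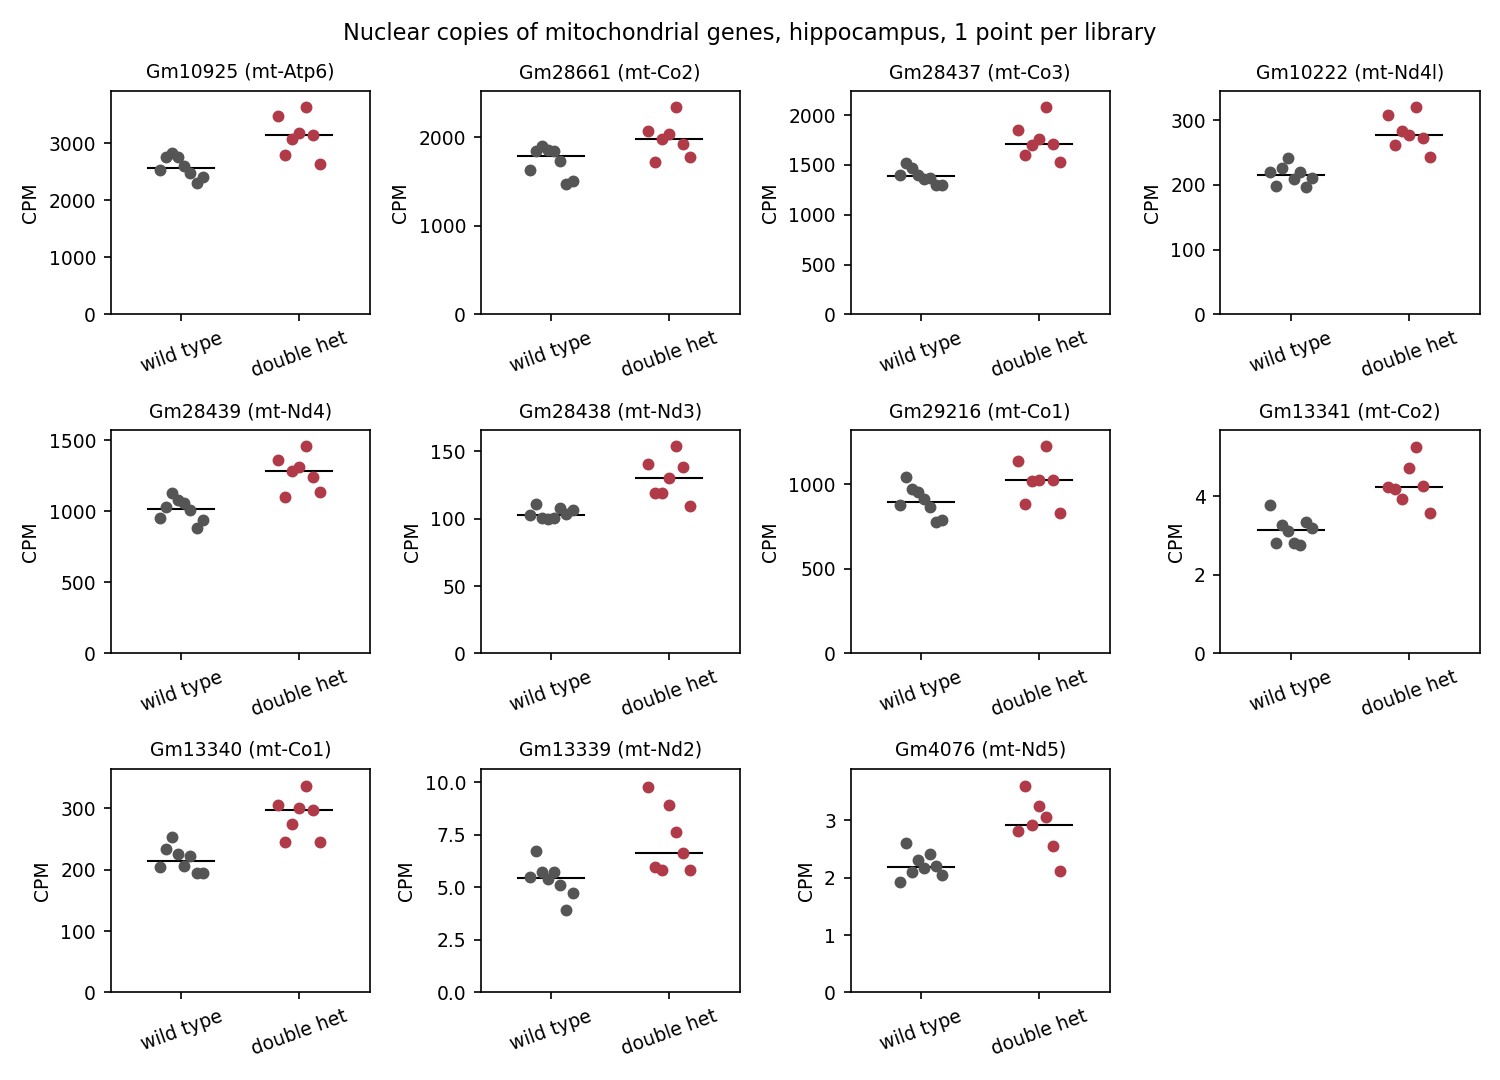
Levels in CPM of the 11 nuclear copies of mitochondrial genes in the 8 wild-type and 7 double het hippocampus libraries, with 1 point per library, a bar at the median and each axis starting at 0. The double het median lies above the wild-type median in all 11 panels. The groups do not overlap in Gm10222 and Gm28437, where 0.0198% of all genes tested were higher without overlap.

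In Gm10222 the libraries whose Slc25a1 level goes against the label lay with their labelled group. This follows from the lack of overlap between the groups and is no separate observation. The libraries labelled double het 5 and 6 had 320 and 273 CPM of Gm10222, and the libraries labelled wild type 6 and 7 had 209 and 221 CPM. In Gm29216, Gm13339 and Gm4076 double het library 6 lay inside the wild-type range. Double het library 5 was the highest of its group in every copy except Gm13339 and Gm4076. Without the 6 animals the log2 fold change of Gm10222 was 0.35 ± 0.079 (edgeR adjusted p 0.671) and that of Gm13340 0.33 ± 0.087 (adjusted p 1.00), and neither passed. The median of the 11 copies was then 0.31, and 0.36 without the libraries set apart.

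The call itself depended on single libraries. Leaving out 1 of the 15 libraries at a time, Gm10222 kept a log2 fold change of 0.35 to 0.41, with an edgeR adjusted p from 0.0083 to 0.15, and 0 genes passed in 11 of the 15 fits. Those 11 fits each left out wild-type library 2, 3, 6, 7, 8 or 9 or double het library 1, 3, 4, 5 or 6, which left Gm10222 at an adjusted p of 0.0541 to 0.15.

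The single heterozygotes of the same model place these values beside each gene alone; the comparisons share the wild-type libraries and are not independent. In hippocampus labelled Mrpl40 het the 11 copies had log2 fold changes of 0.20 to 0.42 with a median of 0.35, and Gm10222 passed (0.42 ± 0.064; edgeR adjusted p 0.00421). It was the only one of the 20162 genes to pass there (0.00496%). In hippocampus labelled Slc25a1 het the 11 copies ranged from -0.04 to 0.08 with a median of 0.01, and none passed. Gm10222 had a mean of 215 ± 14.9 CPM in wild type (SD, n = 8). Its mean was 225 ± 27.4 CPM in libraries labelled Slc25a1 het, 289 ± 21.6 CPM in those labelled Mrpl40 het and 281 ± 26.4 CPM in double het (SD, n = 7 each). By label, the levels fell into a lower pair, wild type and Slc25a1 het, and a higher pair, Mrpl40 het and double het. Differences inside each pair were smaller than the SD. These groups keep the mismatched animals: 2 in wild type, 2 in Slc25a1 het and 2 in double het had the other label's Slc25a1 level. The Mrpl40 label is not checked by its count. The pairs therefore describe labels, and the part of each allele was not tested.

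The interaction asks whether the double het differs from the sum of both single effects on the log2 scale. It was -0.11 ± 0.092 (SE) for Gm10222 (unadjusted edgeR p 0.26) and -0.04 ± 0.10 for Gm13340, and over the 11 copies it ran from -0.11 to 0.13. Over all genes 0 passed by edgeR and 0 by DESeq2. At an unadjusted p under 0.05 there were 683 of 20162 genes (3.39%) by edgeR. By DESeq2, which was run without the filter on low counts, there were 1002 of 41378. For Gm10222 this interaction is less than 2 SE from 0, and a departure from additivity of its own size could not be told from none at these numbers of animals. The interaction also rests on the labels as given, with the 6 mismatched animals kept, so it does not separate the alleles cleanly.

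**Figure D3:**
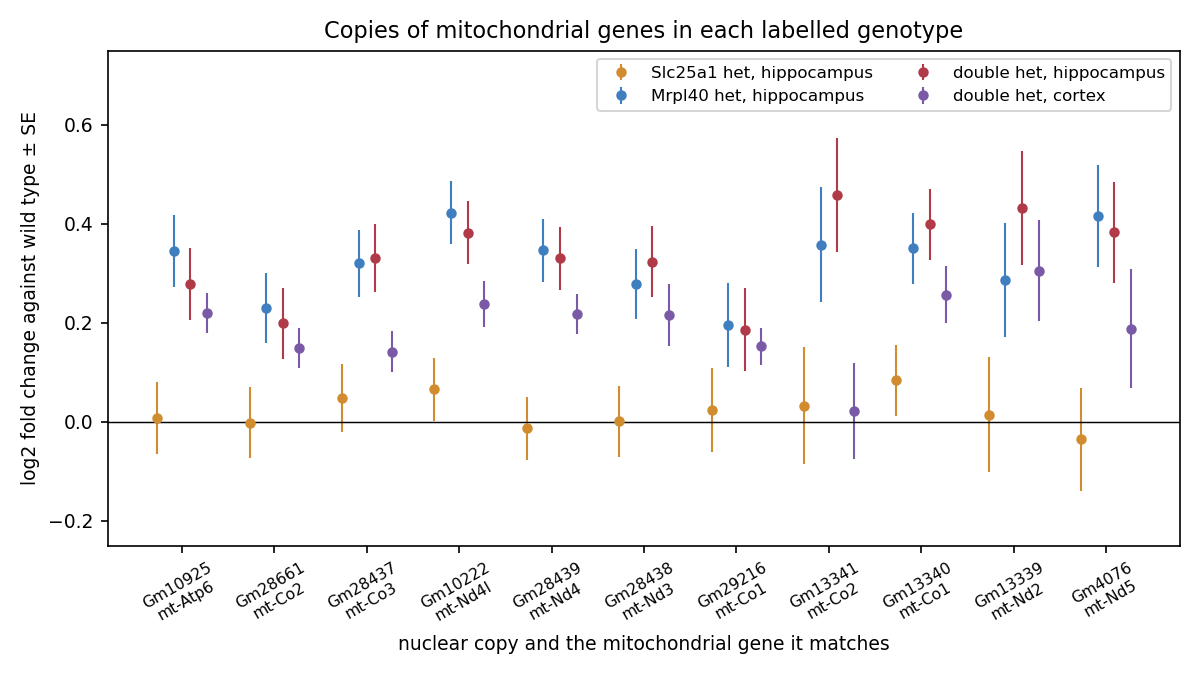
Log2 fold change against wild type ± SE of the 11 copies in hippocampus of each heterozygous genotype and in cortex of double het, with the copies along the horizontal axis; comparisons in hippocampus share wild-type libraries. Groups are as labelled, with all animals kept. The medians are 0.01, 0.35, 0.33 and 0.22, and the Slc25a1 het points lie around 0.

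Nuclear-encoded subunits of the respiratory chain lay slightly below wild type, and none passed. Complex I oxidizes NADH, and of its 36 nuclear-encoded subunits measured, 31 lay below wild type with a median log2 fold change of -0.05, where 51.4% of all genes lay below; 8 had an unadjusted p under 0.05 and all 8 were lower (background for lower genes 3.05%). Ndufs5, an accessory subunit, ranged from 30.6 to 39.1 CPM with a median of 32.5 in wild type and from 27.1 to 31.0 CPM with a median of 30.1 in double het. Most double het libraries lay below the wild-type range, with 5 of 7 under its lowest library (log2 fold change -0.16 ± 0.047; edgeR adjusted p 0.70). Ndufa2 was at -0.15 ± 0.051 and Ndufaf2, an assembly factor of complex I that had the smallest p of the named protein-coding genes, at -0.26 ± 0.054 (median 14.5 CPM in wild type, 12.3 in double het; edgeR adjusted p 0.147).

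Of 39 nuclear subunits of complexes II to V, which pass electrons on to oxygen and make ATP, 31 lay below wild type (median -0.05), where 51.4% of all genes did, and 8 had an unadjusted p under 0.05, all lower, where 3.05% of all genes were lower at that p. Atp5g3, which encodes subunit c of the ATP synthase rotor, ranged from 178 to 196 CPM with a median of 181 in wild type and from 152 to 180 CPM with a median of 168 in double het. In 6 of 7 double het libraries it lay below the whole wild-type range (-0.13 ± 0.037; edgeR adjusted p 0.70). Atp5j, which encodes a subunit of the stalk of the ATP synthase, was at -0.13 ± 0.036 (edgeR adjusted p 0.674). Against the same wild-type libraries, the medians of complex I and of complexes II to V were -0.09 and -0.07 in hippocampus labelled Slc25a1 het. In hippocampus labelled Mrpl40 het they were -0.02 and 0.0018.

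Proteins of the mitochondrial ribosome, the complex to which Mrpl40 belongs, lay close to wild type. Of 49 genes of the large subunit 36 lay below (median -0.03, and -0.04 without the libraries set apart), and 2 had an unadjusted p under 0.05, both lower, a share near the 3.05% of all genes. These were Mrpl30 at -0.09 ± 0.040 and Mrpl41 at -0.10 ± 0.044. Of 31 genes of the small subunit 18 lay below (median -0.03), and 3 were lower and 1 higher at an unadjusted p under 0.05, where 3.05% and 2.23% of all genes were. Its 2 smallest p pointed in opposite directions: Mrps18b at 0.18 ± 0.060 and Mrps18c at -0.17 ± 0.065. Of 37 mitochondrial carriers of the Slc25 family, 20 lay below and 17 above (median -0.0048, and 0.0068 without the libraries set apart), and besides Slc25a1 the smallest p were those of Slc25a40 (-0.11 ± 0.049) and Slc25a35 (0.16 ± 0.076).

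Genes of the cytosolic ribosome, which translates nuclear messenger RNAs, also lay slightly below wild type. Of 80 measured genes 67 lay below (median -0.07), where 51.4% of all genes did, and 16 had an unadjusted p under 0.05, all lower, where 3.05% of all genes were. None of the 80 passed over all genes. Rpl27a, of the large subunit, ranged from 40.0 to 49.0 CPM with a median of 41.6 in wild type and from 35.7 to 39.9 CPM with a median of 39.0 in double het. All 7 double het libraries lay below every wild-type library, but by a narrow margin (-0.18 ± 0.045; edgeR adjusted p 0.567). Rpl22l1 (-0.23 ± 0.062), Rps27l (-0.27 ± 0.066) and the pseudogenes Rps13-ps5 (-0.57 ± 0.15) and Rpl9-ps7 (-0.23 ± 0.063), which can share reads with their parent genes, were also among the smallest p and lay outside the list.

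The medians of these lists were closer to 0 with trends in transcript length and GC content taken out together, and the part of either trend was not tested. Ribosomal and respiratory transcripts are short, and the trend of a library's log2 counts with transcript length had a median slope of -0.0076 per doubling of length in wild type (range -0.036 to 0.014) and 0.0055 in double het (range -0.014 to 0.027). With length and GC content trends taken out, the median of the cytosolic ribosomal genes was -0.05 with 63 of 80 below, that of complex I -0.03 with 30 of 36 below and that of complexes II to V -0.03 with 28 of 39 below. The mean log2 CPM of the cytosolic ribosomal genes ranged from 5.27 to 5.48 in wild type and from 5.16 to 5.36 in double het, and most libraries of both groups lay in the shared range. Without the 6 animals, 67 of 80 lay below with a median of -0.07. In cortex of double het 73 of 80 lay below with the same median of -0.07, although Rpl27a was at 0.02 there.

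**Figure D4:**
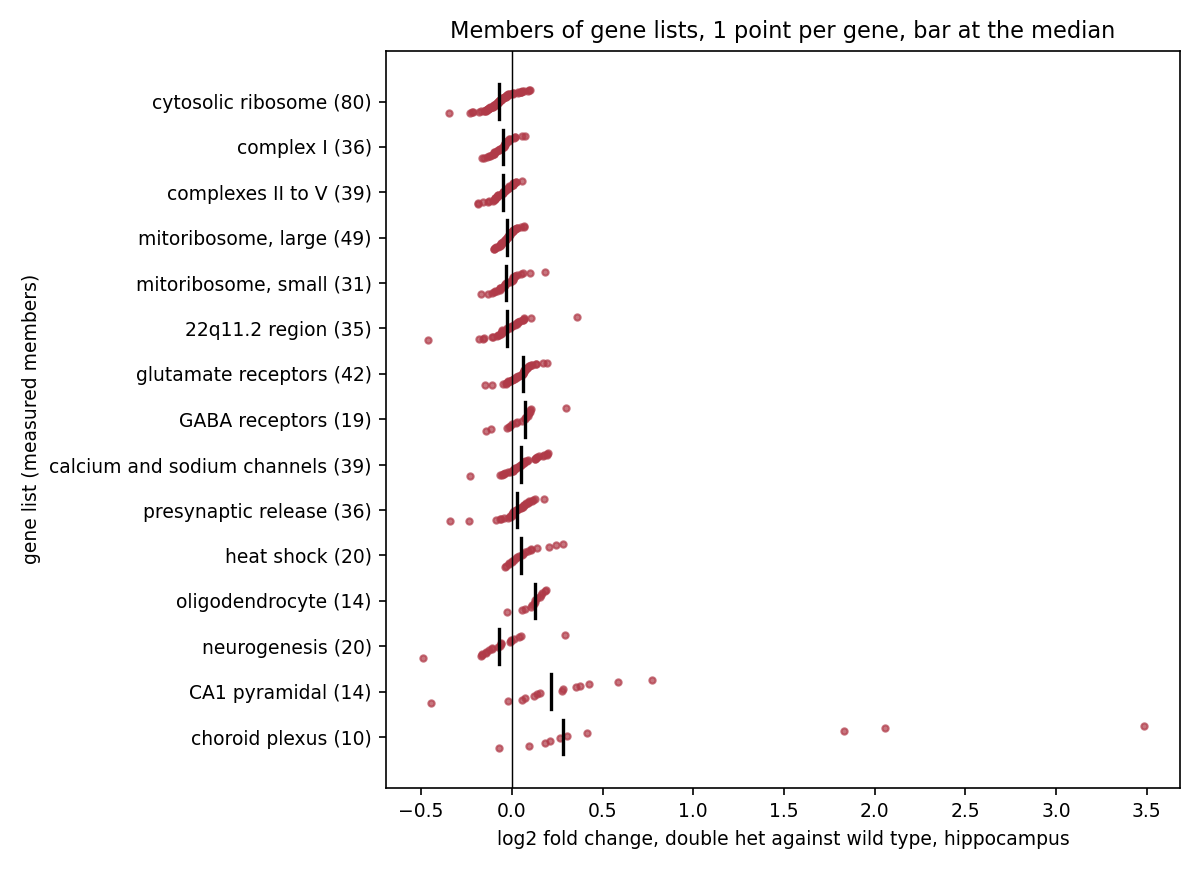
Log2 fold change of double het against wild type in hippocampus for the measured members of 15 gene lists, with 1 point per gene, members sorted within each list and a bar at the list median; the number of members is in brackets. Ribosomal and respiratory lists lie slightly left of 0, receptor and channel lists slightly right, and single choroid plexus genes reach 3.48.

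Genes of synaptic transmission lay slightly above wild type. Of 42 glutamate receptor and postsynaptic genes 33 lay above (median 0.06), of 19 genes of GABA receptors and chloride balance 14 (median 0.07), of 39 calcium and sodium channel genes 31 (median 0.05) and of 36 presynaptic release genes 26 (median 0.03), against 48.6% of all genes. Grin1, the obligatory subunit of NMDA receptors, ranged from 301 to 358 CPM with a median of 329 in wild type and from 329 to 397 CPM with a median of 359 in double het, with 4 of 7 libraries above the wild-type range (0.13 ± 0.051; edgeR adjusted p 0.906). Slc12a5, the neuronal chloride exporter, was at 0.10 ± 0.037 with 5 of 7 libraries above the wild-type range (adjusted p 0.88). Homer1, a postsynaptic scaffold, was at 0.19 ± 0.090. Ryr3, a calcium release channel, was at 0.17 ± 0.080 and Cacnb2, a calcium channel subunit, at 0.15 ± 0.064. Of the presynaptic genes Doc2a lay below and Unc13a above, at -0.41 to -0.23 and 0.05 to 0.10 with each library left out in turn. At an unadjusted edgeR p under 0.05, 3 of the 42, 1 of the 19 and 3 of the 39 genes were higher and 0 lower. Of the 36 presynaptic genes 0 were higher and 1 was lower, where 2.23% of all genes were higher and 3.05% lower.

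The values of this group were smaller with both trends removed. With length and GC trends taken out the medians were 0.03 for glutamate receptors, 0.05 for GABA, 0.03 for calcium and sodium channels and 0.02 for presynaptic genes. The first 3 medians were, without the 6 animals, 0.04, 0.04 and 0.03, and without the libraries set apart the presynaptic median was 0.08. Potassium channels lay on both sides (23 of 40 above, median 0.02, and -0.0039 without the 6 animals), with Kcnq3 at 0.19 ± 0.076 and Kcnip3 at -0.14 ± 0.051. Trpc5, a cation channel of hippocampal neurons that is in no list, ranged from 2.20 to 3.38 CPM with a median of 2.93 in wild type and from 2.92 to 5.10 CPM with a median of 4.06 in double het, and 6 of 7 double het libraries lay above the wild-type range (0.47 ± 0.11; edgeR adjusted p 0.484).

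The other genes with the smallest p and a mean log2 CPM of at least 0 were of mixed function, and none passed. Above wild type lay Usp33, a deubiquitinase (0.17 ± 0.040, 6 of 7 double het libraries above the wild-type range), Tpp2, a cytosolic peptidase (0.15 ± 0.036, 6 of 7), and Zfc3h1, a zinc finger protein of nuclear RNA decay (0.14 ± 0.039, 3 of 7). Below lay Dnajc17 (-0.27 ± 0.068, 6 of 7 below the range), Ccs, the copper chaperone of superoxide dismutase (-0.21 ± 0.058, 3 of 7), Pfdn4, a prefoldin subunit (-0.21 ± 0.057, 6 of 7), and Asprv1, an aspartic protease (-0.53 ± 0.14, 7 of 7). Over all genes 11 (0.0546%) had groups that did not overlap, 4 higher (0.0198%) and 7 lower (0.0347%), among them Gm14681 (-0.24 ± 0.054), Echdc3 (-0.84 ± 0.23) and Smim11 (-0.23 ± 0.065), which were picked out after their values were seen.

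Pathways next to the citrate carrier showed little. Of 29 genes of citrate use and lipid synthesis 16 lay below (median -0.0077, and 0.02 without the libraries set apart), with Elovl6 at 0.10 ± 0.056 and Fasn, the fatty acid synthase, at 0.10 ± 0.057. Of 25 cholesterol synthesis genes 18 lay below (median -0.03), with Acat2 at -0.13 ± 0.066 and Lss at -0.15 ± 0.077. Without the libraries set apart this median was 0.06 with 7 of 25 below, so the direction of the list turned with 3 of the libraries compared. Mpc1 and Mpc2, which together form the mitochondrial pyruvate carrier, were at -0.11 ± 0.043 and -0.10 ± 0.043. Of 27 measured genes of the mitochondrial stress response 16 lay above (median 0.01), and of 20 heat shock genes 16 (median 0.05). Both medians were 0.02 without the 6 animals. None of these genes passed.

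Of 35 measured genes of the 22q11.2 region 22 lay below wild type (median -0.02, and -0.06 without the libraries set apart), where 51.4% of all genes did. At an unadjusted p under 0.05, 3 were lower, where 3.05% of all genes were. They were the targeted Slc25a1, Ranbp1, a regulator of nuclear transport (-0.11 ± 0.048; edgeR adjusted p 0.918), and Dgcr6 (-0.15 ± 0.072; adjusted p 0.93). In hippocampus labelled Slc25a1 het these last 2 genes were at -0.11 and -0.19, and in Mrpl40 het at -0.09 and -0.01, against the same wild-type libraries. In bulk RNA, fewer cells of a type and less RNA per cell cannot be told apart, which bears on all cell type markers that follow.

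Markers of hippocampal fields differed between libraries more than between labels. Of 14 markers of CA1 pyramidal cells 12 lay above wild type (median 0.22), but their mean log2 CPM ranged from 4.60 to 5.35 in wild type and from 4.65 to 5.97 in double het. Double het library 5 was the highest and library 2 the lowest of its group, and the range of double het held nearly the whole range of wild type. The median was -0.04 without the 6 animals and 0.46 without the libraries set apart, and with each library left out in turn it ran from 0.04 (without double het library 5) to 0.36 (without wild-type library 8). CA3 markers lay above in 12 of 14 members (median 0.08, Cdh24 at 0.34 ± 0.16), with medians of 0.14 without the 6 animals and 0.16 without the libraries set apart. CA2 markers were split (6 above, 5 below, median 0.0081). Pcp4 was at -0.25 ± 0.12, but Cacng5 lay above, at 0.13 to 0.27 with each library left out in turn. Without the 6 animals 9 of 11 CA2 markers lay below (median -0.06), and without the libraries set apart 6 lay below (median -0.0064). Dentate granule cell markers were split with all libraries (7 above, 9 below; median -0.01), but all 16 lay below without the libraries set apart (median -0.22) and 5 of 16 without the 6 animals (median 0.04).

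Markers of other cell types were followed in the same way. Oligodendrocyte markers lay above in 13 of 14 members (median 0.13), with mean log2 CPM of 5.75 to 6.95 in wild type and 5.82 to 6.79 in double het. The median was 0.03 without the 6 animals and 0.37 without the libraries set apart, with 0 of 14 below, and ran from 0.04 (without double het library 1) to 0.27 (without wild-type library 8) with each library left out in turn. Fa2h, an enzyme of myelin lipids, was at 0.18 ± 0.15. Genes of neurogenesis lay below in 16 of 20 members (median -0.07). Hopx, a marker of neural stem cells, was at -0.16 ± 0.088, but Top2a lay above, at 0.23 to 0.39 with each library left out in turn. The neurogenesis median was -0.02 without the 6 animals and -0.13 without the libraries set apart. Astrocyte (7 of 12 below, median -0.02), microglia and complement (10 of 15 below, median -0.04) and endothelial and pericyte markers (8 of 12 below, median -0.02) lay near 0, and no marker of these lists passed. Without the libraries set apart the astrocyte and endothelial medians were above 0, at 0.0063 and 0.03, and without the 6 animals all 3 medians were -0.06 or -0.07.

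Choroid plexus, a tissue that borders the hippocampus and secretes cerebrospinal fluid, gave the largest log2 values of any list. Of 14 markers 10 were measured, 9 lay above wild type (median 0.28), where 48.6% of all genes did, and 4 were higher at an unadjusted p under 0.05, where 2.23% of all genes were. The median was 0.10 without the 6 animals and ran from 0.09 (without double het library 6) to 0.49 (without wild-type library 8) with each library left out in turn. Their mean log2 CPM was 0.40 to 0.78 in wild type and 0.56 to 2.22 in double het, highest in library 6. Ttr, which encodes transthyretin and is the most abundant product of choroid plexus, ranged from 0.69 to 5.87 CPM with a median of 3.53 in wild type and from 0.67 to 57.7 CPM with a median of 4.15 in double het. The groups overlapped except for 2 double het libraries above the wild-type range (1.83 ± 0.80; edgeR adjusted p 0.925), and the value was 0.24 without double het library 6. Otx2, the defining transcription factor of choroid plexus, was at 0 in at least 1 library of both groups and reached 0.31 CPM in wild type and 2.40 CPM in double het. The part of this tissue in other results was not tested.

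**Figure D5:**
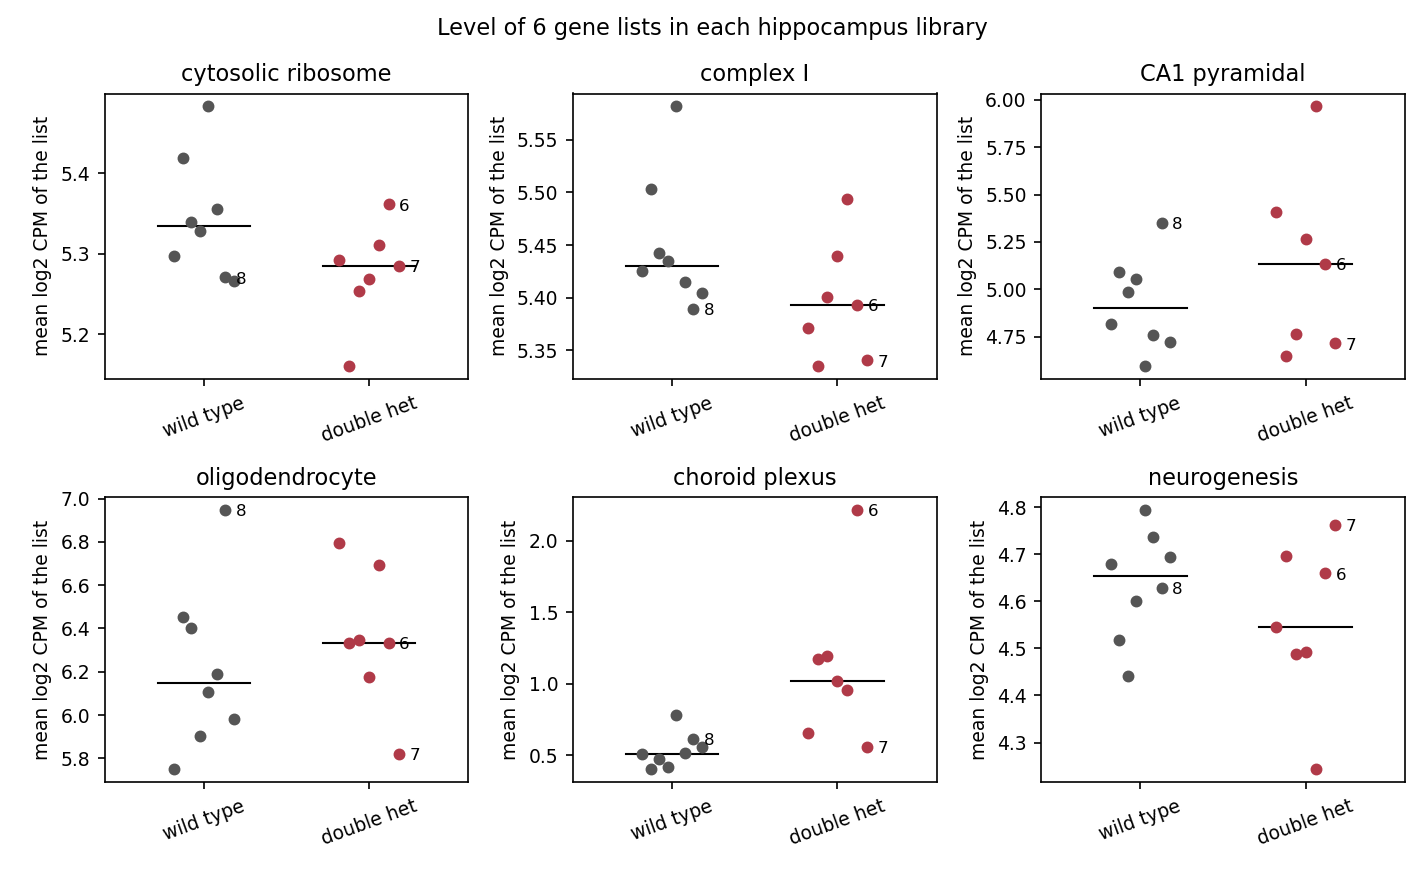
Mean log2 CPM of 6 gene lists in each wild-type and double het hippocampus library, with 1 point per library, a bar at the median and numbers beside the libraries set apart by markers of other regions; the vertical axes differ and do not start at 0. Groups overlap in every panel, and choroid plexus markers reach 2.22 in double het library 6.

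Activity-dependent genes were split in hippocampus. Of 28 immediate early genes 16 lay above wild type (median 0.03). Without the 6 animals 20 of 28 lay below (median -0.03), and without the libraries set apart the median was 0.07. In cortex of the same genotypes 25 of 28 lay below (median -0.33). Homer1, named above for its synaptic role, also belongs to this list. Dusp6, a phosphatase induced by MAP kinase activity, ranged from 28.3 to 40.6 CPM in wild type and from 31.6 to 66.4 CPM in double het, with its highest value in library 5 (0.28 ± 0.17; edgeR adjusted p 0.989). Of the 28 genes 4 had an unadjusted p under 0.05 for the difference between the tissues, against 5.03% of all genes.

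The difference between hippocampus and cortex was tested with the animal as a block over 29 animals with both tissues. Of 21354 genes 5 passed (0.0234%) by edgeR, 4 with a higher double het effect in hippocampus and 1 with a lower. Pcsk1n, a secreted protein of neuroendocrine cells, was at 0.18 ± 0.15 in hippocampus and -0.49 in cortex, a difference of 0.67 ± 0.11 (edgeR adjusted p 0.0171). Zfp771 was at 0.22 and -0.55 (difference 0.76 ± 0.13) and Scand1 at 0.60 and -1.09 (difference 1.75 ± 0.32), and for each of the 3 genes hippocampus by itself did not pass. Gm14681, a processed pseudogene whose counts can be shared with its parent gene, was at -0.24 in hippocampus and 0.18 in cortex (difference -0.42 ± 0.078). Without the 6 animals 0 genes passed.

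The copies of mitochondrial genes lay above wild type in both tissues. The tissues came largely from the same animals, so cortex is no independent repeat. In cortex labelled double het, where 14 of 20394 genes passed (0.0686%), the 11 copies had log2 fold changes of 0.02 to 0.31 with a median of 0.22, and 3 passed (Gm10925 at 0.22, Gm10222 at 0.24 and Gm28439 at 0.22). For Gm10222 the effect in hippocampus minus that in cortex was 0.15 ± 0.086 (unadjusted edgeR p 0.0835). Over the 11 copies this difference ran from 0.03 to 0.40. The 2 copies with an unadjusted edgeR p under 0.05 were Gm28437 and Gm13341, where 5.03% of all genes had such a p. Neither copy passed over all genes.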

How the data were processed

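The authors deposited unnormalized read counts for each gene, 1 column per library, which were used unchanged. The submitters' processing notes name FastQC, HISAT2, featureCounts and DESeq2 and the builds mm39 and GRCm39, without versions or order. The table holds 57180 gene rows, 44147 above 0 in any library and 7074 with a blank symbol. Groups were taken from the labels. The libraries, gene lists and alternatives were chosen with earlier results of these data known.

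Counts were fitted in R 4.3.3 with edgeR 4.0.16 (quasi-likelihood F test), TMM scaling, its filter on low counts, robust dispersion and Benjamini-Hochberg adjustment at 0.05 over all genes tested. All 29 hippocampus libraries of 4 genotypes shared one fit, and the tissue difference used the animal as a block. P-values measure the spread between these animals, 1 library each. The SE was computed as the log2 fold change over the root of the F statistic. Log2 CPM used a prior count of 2. Every number of a list is a count or median over its measured members, for 42 lists, and no list was tested.

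GENCODE vM21 (GRCm38) gave transcript lengths, GC content and positions for 97.4% of the genes tested, so that positions are those of GRCm38 and not of the authors' build. Its transcripts were searched for mitochondrial sequence with blastn 2.17.0. Genes were named by a rule: Slc25a1 and Mrpl40, every gene that passed, the 15 smallest p (leaving out symbols of predicted genes and mean log2 CPM below 0), and the 2 smallest p of each list. Others were named after their values were seen. One gene that the rule names is not reported here.

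Alternatives were DESeq2 1.42.0 (Wald test, and its size factors in edgeR), no filter, a fit of only the 2 groups compared, a block for the replicate number, each library left out in turn, the 6 animals left out, and length and GC offsets of 5 degrees of freedom. Leaving out libraries with high markers of other regions was added after seeing the data. No 2 libraries of a group held identical counts (highest correlation in hippocampus 0.992). The fit was tested on simulated data. Figures were drawn with Python 3.11.15 and matplotlib 3.10.9.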

Additional observations from a re-analysis of the deposited data

Results flagged for a closer look

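Each group of the 114 named genes was searched for a library far from the others, in 228 groups, where chance alone flags about 1 in 20. This found 11 values, about as many as chance gives, and they fell in 4 libraries. Wild-type library 8 was the highest in Lss (42.3 CPM, nearest 34.2), Slc38a2 (115 CPM, nearest 89.5), Mpc1 (32.6 CPM, nearest 29.7), Foxp2 (2.65 CPM, nearest 0.91) and Nxph4 (2.82 CPM, nearest 0.74). This library also had the highest level of subiculum and neocortex markers, 5.07 in mean log2 CPM where the wild-type median was 3.95. Double het library 5 was the lowest in Asprv1 (1.06 CPM, nearest 1.66) and the highest in Ndufa2 (29.9 CPM, nearest 26.5) and Dusp6 (66.4 CPM, nearest 42.7). It was also the highest of its group in CA1 markers, and its Slc25a1 level goes against its label. Double het library 2 was the highest in Nxph4 (1.20 CPM, nearest 0.69) and the lowest in Gm14681 (18.8 CPM, nearest 20.9). Wild-type library 6, whose Slc25a1 level also goes against its label, was the highest in Ndufs5 (39.1 CPM, nearest 33.6).

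For 4 named genes the double het effect differed between hippocampus and cortex by the edgeR test of that difference: Scand1 by 1.75, Zfp771 by 0.76, Pcsk1n by 0.67 and Gm14681 by -0.42 on the log2 scale. For Scand1, Zfp771 and Pcsk1n the value was above 0 in hippocampus and below 0 in cortex, and the reverse held for Gm14681.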

How the results depend on the processing

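The number of genes higher in double het was 2 by edgeR. It was 1 without a filter on low counts, 1 with only the 2 genotypes compared, 0 without the 6 animals at the other label's Slc25a1 level (where 1 gene, Slc25a1, by which they were picked, was lower) and 4 by DESeq2; it ranged from 0 to 3 with each library left out in turn. It was 2 with DESeq2 size factors and with length and GC offsets (both times Gm10222 and Gm13340), and 2 without the libraries with high markers of other regions (Sacm1l and Gm10222). The number of genes lower was 0 with each library left out. Without the 6 animals fewer libraries were compared. For the difference between tissues, the 4 genes higher and 1 lower became 0 and 0 without the 6 animals. The cause of these shifts was not tested.

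The fit with the replicate number as a block held only the 12 libraries of these 2 groups whose number occurs in both. It left out wild-type libraries 8 and 9 and double het library 1, so it differs from the main fit by more than the block. In it 2 genes passed (Ide and Gm10222), and Gm13340 no longer did (0.33, edgeR adjusted p 0.107). Of 19160 genes tested 1438 had an unadjusted edgeR p under 0.05, against 1064 of 20162 in the main fit. The replicate numbers do not pair the animals by the labels. Deviations of same-numbered libraries correlated from -0.067 to 0.527 over 6 numbers. Of the 12 libraries 5 correlated best with their own number, a hint from the data and not the design.

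Signs turned for few named genes, none of which passed. Under the block Mrpl40 was at -0.00043, Tmem119 at -0.0067 and Nxph4 at 0.15. Without the libraries with high markers of other regions St18 was at -0.0077, Pdzd2 at -0.15 and Nxph4 at 0.23. With each library left out in turn Mrpl40 ranged from -0.0035 (without wild-type library 5) to 0.051 and Nxph4 from -0.62 to 0.22 (without wild-type library 8). Depth and the spread between animals together set the precision, with a median SE of a log2 fold change of 0.09 over all genes tested.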

Other observations

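The remaining gene lists are given as counts and medians of double het against wild type in hippocampus; no member passed, and 51.4% of all genes tested lay below wild type. Peptide messengers lay mostly below, in 16 of 26 measured members (median -0.04), and interneuron markers in 14 of 20 (median -0.03). Both directions turned without wild-type library 8 and the other libraries set apart by markers of other regions, to medians of 0.07 with 8 of 26 below and 0.05 with 9 of 20 below. Npy, a peptide of interneurons, was at -0.12 ± 0.082, and Cck, a peptide of interneurons and some pyramidal cells, at 0.13 ± 0.093. Genes of interferon response and antigen presentation lay below in 15 of 23 members (median -0.04), with B2m, the light chain of MHC class I, at -0.09 ± 0.069. All 3 metallothioneins, which bind zinc and copper, lay below (median -0.11; Mt1 at -0.11 ± 0.10 and Mt3 at -0.07 ± 0.056), and in cortex all 3 lay below as well (median -0.19). Genes of glutamate and glutamine exchange lay above in 14 of 18 members (median 0.03, and 0.06 without the libraries set apart). Clock genes lay above in 12 of 19 (median 0.01, and 0.03 without the libraries set apart). Without the 6 animals whose Slc25a1 level is that of the other label, 15 of 19 clock genes lay below (median -0.03). Glycolysis and pyruvate genes were split, with 18 of 31 below (median -0.0039), and lay mostly above without the 6 animals (median 0.01) and without the libraries set apart (median 0.03).

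Among markers of other tissues and cells, oligodendrocyte precursor markers lay above in 7 of 10 members (median 0.04). Their median was -0.01 without the 6 animals and 0.13 without the libraries set apart. Fibroblast and meningeal markers lay above in 7 of 10 (median 0.12). That median was 0.06 without the 6 animals and 0.08 without the libraries set apart. Thalamus and habenula markers lay above in 8 of 13 (median 0.07, and 0.19 without the libraries set apart). Tcf7l2, a transcription factor of thalamus and habenula, was at 6.17 CPM in the median double het library but reached 19.2 CPM in 1 of them, against 5.05 to 7.54 CPM in wild type (0.66 ± 0.24; edgeR adjusted p 0.879). Markers of subiculum and neocortex were split (7 of 15 above, median -0.03); without the libraries set apart, which this list helped to pick, 3 of 15 lay below (median 0.23), and without the 6 animals 10 of 15 (median -0.13). Striatal markers were split too (5 of 11 above, median -0.05, and 0.0079 without the libraries set apart). Cerebellar markers lay above in 7 of 10 measured members (median 0.13, but -0.03 without the libraries set apart and 0.24 without the 6 animals). Ependymal markers lay below in 4 of 6 (median -0.18) and blood genes in 4 of 5 (median -0.01). The blood median was 0.04 without the 6 animals and -0.07 without the libraries set apart. The part of these tissues in other results was not tested.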
